A study of Mus musculus with 8 samples.

Results

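The comparison set marrow of mice with Aid-intact leukaemia and the treatment LPS against marrow of mice with leukaemia of the same genotype and vehicle. Its members were the 3 LPS and 2 PBS bone marrow libraries of Aid-intact cells, 5 of 8 libraries in the series, and the 12105 of 18020 table rows with a mean of at least 0.5 FPKM over those 5 libraries. FPKM divides the fragments counted for a transcript by its length and by the library's total. WT_LPS (n = 3) was bone marrow of leukaemic mice that had received BCR-ABL1+ B-ALL cells with the genotype Aid WT and the treatment LPS. WT_PBS (n = 2) was marrow of mice with the same Aid WT cells and PBS, the vehicle. KO_LPS (n = 3), from cells with the genotype Aid KO and LPS, entered the estimate of the spread and is given for some genes as a further LPS-treated group. All groups carried the BCR-ABL1 fusion kinase, the kinase behind one class of acute leukaemia of B-cell precursors. The labels give the treatment as that of the cells, and the sources used here name no dose, time, route, mouse strain or age. They also leave unsaid whether the leukaemia cells of a group came from separate cultures. The p-values therefore measure only the spread among libraries, and that spread may be technical.

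Lipopolysaccharide (LPS) is a component of the outer membrane of Gram-negative bacteria. It is sensed by Toll-like receptor 4 with the co-receptors MD-2 (gene Ly96) and CD14. One branch of the pathway runs through the adaptor MyD88 to NF-kB, which switches on cytokine genes and its own inhibitors. The other runs through the adaptor TRIF (gene Ticam1) to interferon and the interferon-stimulated genes.

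The libraries were mixtures in which leukaemic B-lineage transcripts stood high. Vpreb1, a surrogate light chain gene of precursor B cells, was at 2444, 2082 and 2316 FPKM in WT_LPS, against 2362 and 2140 FPKM in WT_PBS. Cd79a, which encodes a signalling chain of the B-cell receptor, was at 1061, 901 and 941 FPKM in WT_LPS, against 877 and 844 FPKM in WT_PBS. Granulocyte transcripts were abundant as well. Summed over 16 neutrophil markers they came to 28366, 9061 and 8739 FPKM in WT_LPS, against 12259 and 15657 FPKM in WT_PBS, so WT_LPS replicate 1 stood apart. The same library held the lowest of the 5 values for 45% of genes, where the other 4 held it for 11.6% to 16.1%. Correlations across genes, which are not independent replicates, were 0.964 to 0.988 within WT_LPS, 0.977 within WT_PBS and up to 0.991 between the groups. The highest was that of WT_LPS replicate 2 with WT_PBS replicate 2.

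No gene separated the groups beyond the spread between libraries. Of 12105 genes, 0 passed an adjusted p of 0.05 (limma, Benjamini-Hochberg, smallest adjusted p = 0.9998). At an unadjusted p under 0.05 limma gave 147 genes (1.21%), where evenly spread p-values would give 605. Of the 147, 53 were higher in WT_LPS (0.438%) and 94 lower (0.777%). These p-values took the spread from 8 libraries, KO_LPS among them, and their size depended on that choice. With only the 5 libraries compared, the smallest adjusted p from limma was 0.1754, and 0 genes passed. At an unadjusted p under 0.05, 62 genes were then higher in WT_LPS and 113 lower. With libraries weighted by their fit, the smallest adjusted p from limma was 0.1791, and again 0 genes passed. Every WT_LPS library was above both WT_PBS libraries for 644 genes (5.32%) and below both for 1258 genes (10.4%). This lean towards lower values moved with scaling. The split was 998 above and 861 below after median-ratio scaling and 891 above and 908 below after quantile normalization. The median difference of all genes was -0.06 as deposited and 0.01 after median-ratio scaling, in log2(FPKM + 1), the scale of all differences below.

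**Figure D1:**
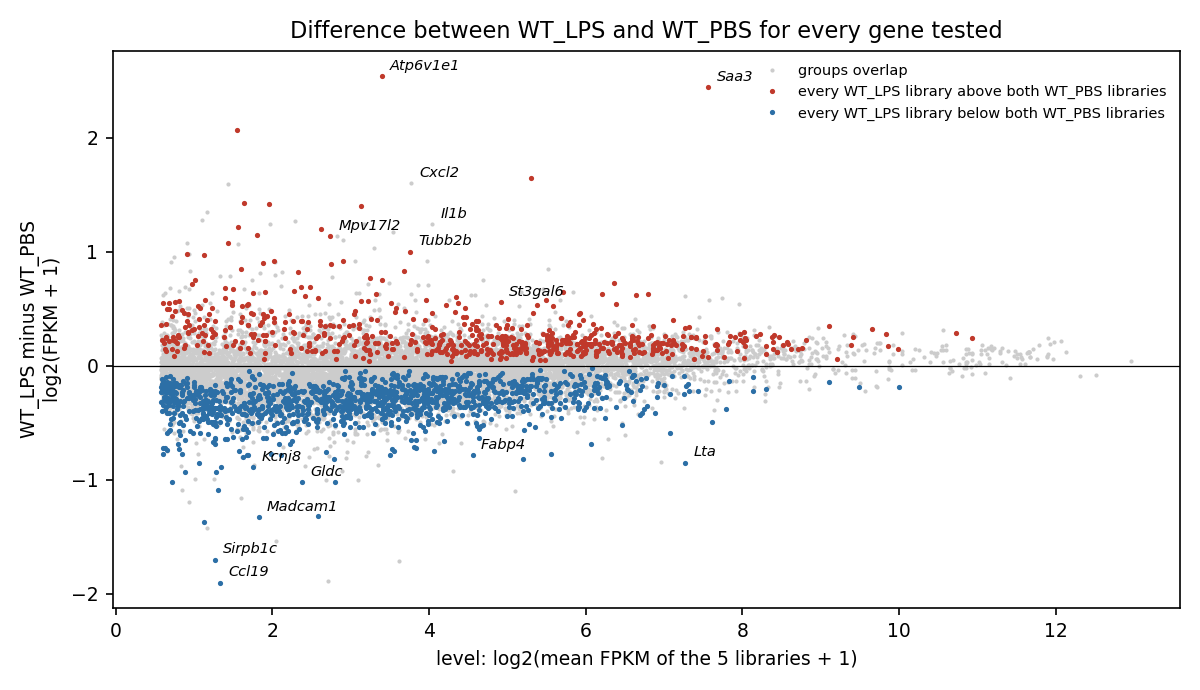
Each point is 1 of 12105 genes, with its mean level over the 5 libraries on the horizontal axis (log2 of FPKM + 1) and the difference WT_LPS minus WT_PBS on the vertical axis (log2 of FPKM + 1). Red genes (644) have every WT_LPS library above both WT_PBS libraries and blue genes (1258) every one below, and most of the widest differences lie among genes of low level.

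The precision was enough to bound most genes. On the log2(FPKM + 1) scale, the 95% interval of the difference lay within 2-fold in either direction for 9896 genes (81.8%). Its median half-width was 0.52. Differences over 2-fold on this scale were fitted for 44 genes, 26 higher and 18 lower in WT_LPS. The groups did not overlap for 12 of those that were higher and 9 of those that were lower. The added 1 shrinks differences at a few FPKM, so such genes can be over 2-fold apart in FPKM without being counted.

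Among genes known to respond to LPS, the acute-phase gene Saa3 was higher in every WT_LPS library. Saa3 encodes serum amyloid A3, an apolipoprotein made by macrophages and stromal cells in inflammation, and lies on chromosome 7 (46711998 to 46719615, GRCm38.p6). Its level was 366, 289 and 185 FPKM in WT_LPS, against 64.7 and 36.9 FPKM in WT_PBS. KO_LPS libraries stood at 830, 1137 and 148 FPKM. The lowest WT_LPS library was thus well above the highest WT_PBS library. The difference from WT_PBS was 2.44 ± 0.76 (SE), with an interval of 0.72 to 4.16 (limma, unadjusted p = 0.011). It missed the threshold, with an adjusted p of 0.9998 from limma.

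The other acute-phase and innate effector genes did not follow Saa3. Of 15 tested, 5 differences lay above 0 and 10 below, with a median of -0.09, and the groups were apart for 2, both with WT_LPS higher (13.3%, against 5.32% of all genes). The second was Cfb, complement factor B, at 15.9, 20.4 and 15.7 FPKM in WT_LPS, against 14.2 and 13 FPKM in WT_PBS. Lcn2, the iron-binding lipocalin of neutrophil granules and a textbook LPS target, was at 1441, 619 and 454 FPKM in WT_LPS, against 765 and 937 FPKM in WT_PBS. Its high value was that of WT_LPS replicate 1, and the groups overlapped. Marco, a macrophage scavenger receptor, was level, at 11.4, 24.1 and 21.4 FPKM in WT_LPS, against 17.1 and 18.9 FPKM in WT_PBS.

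Several immediate NF-kB targets were high in WT_LPS replicate 1 alone. Tnfaip3 encodes A20, a ubiquitin-editing inhibitor of NF-kB, and was at 37.8, 5.97 and 5.81 FPKM in WT_LPS, against 7.02 and 6.80 FPKM in WT_PBS. Nfkbia, which encodes the inhibitor that holds NF-kB in the cytoplasm, was at 181, 70.5 and 62.7 FPKM in WT_LPS, against 84.9 and 76.1 FPKM in WT_PBS. Nfkbiz, a nuclear cofactor of NF-kB, was at 24.0, 4.23 and 3.66 FPKM in WT_LPS, against 5.81 and 4.83 FPKM in WT_PBS. In each case WT_LPS replicates 2 and 3 lay below both WT_PBS libraries. The differences of Tnfaip3, Nfkbia and Nfkbiz were 0.63, 0.21 and 0.43 with all libraries, and -0.20, -0.27 and -0.35 without WT_LPS replicate 1. Of the 19 subunits and feedback inhibitors tested, 12 differences lay above 0, and the groups were apart for 1 (5.26%, against 5.32% of all genes). That was Zfp36, which encodes an RNA-binding protein that destabilises cytokine messages, at 88.7, 51.7 and 42.5 FPKM in WT_LPS, against 37.5 and 35.7 FPKM in WT_PBS. Socs3, an inhibitor of cytokine receptor signalling, was at 89.0, 49.1 and 29.8 FPKM in WT_LPS, against 23.6 and 32.7 FPKM in WT_PBS. The NF-kB subunit genes Rela and Nfkb1 differed by 0.07 and -0.12.

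Cxcl2, Il1b and Cd14 were highest in the same library, and WT_LPS replicate 2 was also above both WT_PBS libraries for them. Cxcl2, a neutrophil-attracting chemokine, was at 56.0, 3.71 and 0.67 FPKM in WT_LPS, against 1.85 and 1.23 FPKM in WT_PBS. Il1b, interleukin-1 beta, was at 36.9, 19.9 and 6.91 FPKM in WT_LPS, against 6.10 and 7.60 FPKM in WT_PBS. For both genes the lowest WT_LPS value lay within or below the WT_PBS range. Cd14, the LPS co-receptor gene, was at 53.5, 32.5 and 8.89 FPKM in WT_LPS, against 14.8 and 14.5 FPKM in WT_PBS. Tnf, tumour necrosis factor, was not higher, at 17.7, 18.2 and 16.7 FPKM in WT_LPS, against 21.6 and 18.0 FPKM in WT_PBS, a difference of -0.16. Il6 and Csf3 stayed under the level tested, with at most 0.38 FPKM in any of the 5 libraries. Ccl5, a chemokine of activated lymphocytes and macrophages, was at 19.6, 33.2 and 28.5 FPKM in WT_LPS, against 20.1 and 14.2 FPKM in WT_PBS. Of 14 tested cytokine genes the groups were apart for 2, both with WT_LPS lower (14.3%, against 10.4% of all genes). These were Il18, a cytokine matured by inflammasomes, and Lta.

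WT_LPS replicate 1, the highest library for Tnfaip3, Nfkbia, Nfkbiz, Cxcl2, Il1b and Cd14, was the one with the largest neutrophil signal. S100a8, a calcium-binding protein gene of neutrophils, was at 11250, 3469 and 3561 FPKM in WT_LPS, against 4899 and 6153 FPKM in WT_PBS. Camp, the granule peptide cathelicidin, was at 1507, 395 and 410 FPKM in WT_LPS, against 653 and 807 FPKM in WT_PBS. Over the 16 neutrophil markers the median difference was -0.06 with all libraries, and it was -0.60 without WT_LPS replicate 1. None of the 16 was at 0 in any of the 5 libraries. In bulk marrow, fewer cells of a type and less RNA per cell cannot be told apart, and the part of neutrophil content in the Nfkbia, Tnfaip3, Cxcl2 and Il1b values was not tested. Saa3 was 289 and 185 FPKM in WT_LPS replicates 2 and 3, where the neutrophil sum was below that of both WT_PBS libraries. The part of neutrophil, macrophage or stromal content in the Saa3 values was not tested either.

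**Figure D2:**
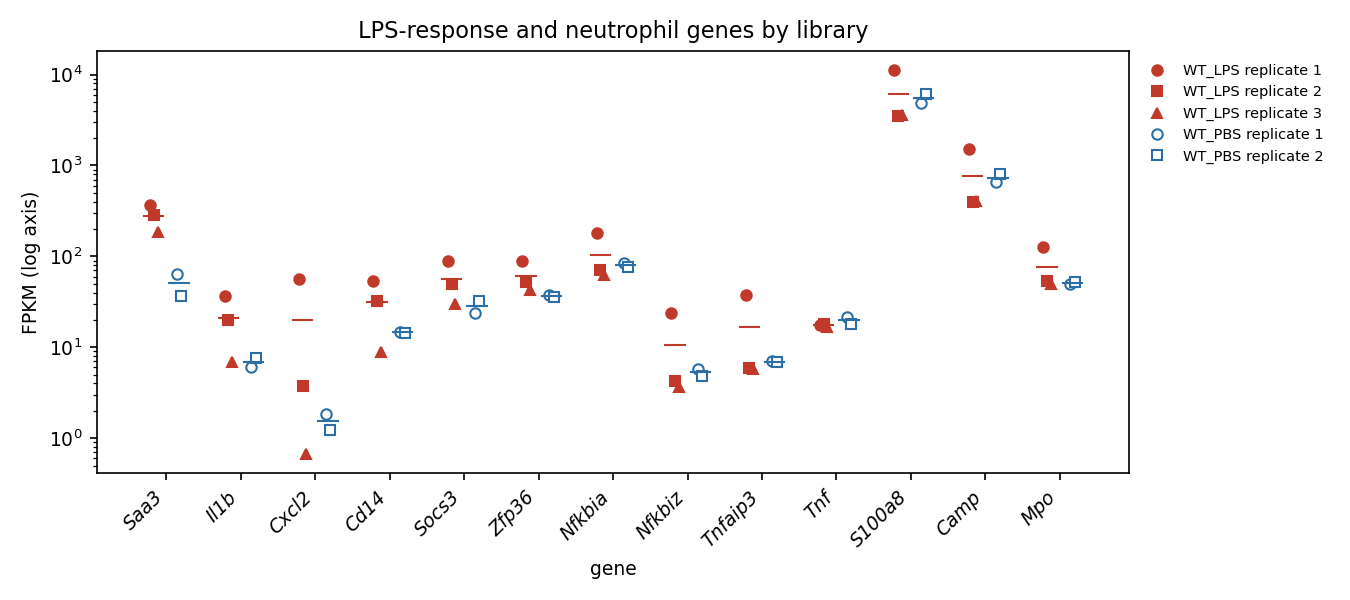
FPKM of 10 LPS-response genes and 3 neutrophil granule genes (S100a8, Camp, Mpo) in each library, on a log axis, with WT_LPS in filled red symbols (n = 3), WT_PBS in open blue symbols (n = 2), and the group mean as a line. Saa3 separates the groups, while Cxcl2, Nfkbia, Nfkbiz, Tnfaip3 and the neutrophil genes stand out in WT_LPS replicate 1 (circles).

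Genes of LPS receptors and adaptors stood near the rest of the transcriptome. Tlr4, the LPS receptor gene, was at 0.74, 1.21 and 1.0 FPKM in WT_LPS, against 1.41 and 1.51 FPKM in WT_PBS, and Ly96, its MD-2 partner, at 3.40, 3.96 and 4.18 FPKM in WT_LPS, against 5.57 and 5.28 FPKM in WT_PBS. Both were apart between groups, with differences of -0.32 and -0.41. Of 21 receptor and adaptor genes, 16 differences lay below 0 with a median of -0.08, near the -0.06 of all genes, and 3 were apart with WT_LPS lower (14.3%, against 10.4%). The adaptors Myd88 (-0.06) and Ticam1 (-0.02) were level.

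The promoter of Saa3 was read for motifs of both branches. The window holds 250 bases before and 50 after the annotated start, RefSeq sequence of build GRCm38.p6, at chr7:46715627-46715926 on the minus strand. Searched on both strands were TTTCNNTTTC, the core of the element bound by interferon-activated factors, and GGGANNTTCC, an NF-kB site, where N is any base. The motifs were found in 3.44% and 1.47% of all 32851 promoter windows, and no window printed here holds overlapping matches of both. Capitals mark matches, here 1 of TTTCNNTTTC on the opposite strand, with none of GGGANNTTCC in this window.
Saa3: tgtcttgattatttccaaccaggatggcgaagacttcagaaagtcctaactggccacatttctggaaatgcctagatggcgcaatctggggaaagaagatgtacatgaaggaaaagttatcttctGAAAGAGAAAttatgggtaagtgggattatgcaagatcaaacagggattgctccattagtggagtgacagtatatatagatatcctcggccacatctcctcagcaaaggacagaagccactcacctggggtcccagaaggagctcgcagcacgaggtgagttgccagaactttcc

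Interferon-stimulated genes were lower in WT_LPS more often than genes at large. Of 37 tested from a list of 42, 31 differences lay below 0 and 6 above, with a median of -0.29 (all genes -0.06). The groups were apart for 12 with WT_LPS lower (32.4%, against 10.4% of all genes) and for 1 with WT_LPS higher (2.70%, against 5.32%). At an unadjusted p under 0.05 there were 4 of 37, where 1.21% of all genes were, and 0 passed adjustment (limma). The members were chosen with earlier results of these data known. Leaving out a library cannot lower the count of 12. Without WT_LPS replicate 1 it was again 12 (32.4%, against 14.7% of all genes), while the median was -0.12 and 10 differences lay above 0. Without WT_LPS replicate 2 the count was 28 (75.7%, against 23.6%). After quantile normalization it was 8 (21.6%, against 7.5% of all genes). Among the 18 members averaging at least 5 FPKM it was 3 (16.7%, against 9.1% of all genes). Summed over the list, levels were 456, 566 and 466 FPKM in WT_LPS, 1165, 1067 and 793 FPKM in KO_LPS, and 595 and 554 FPKM in WT_PBS. The WT_LPS sums overlapped those of WT_PBS, and all KO_LPS sums were above both. Relative to each gene's 5-library mean, the list's median level was -0.43, 0.19 and -0.12 in WT_LPS, against 0.18 and 0.13 in WT_PBS, so WT_LPS replicate 1 was the lowest. The part of that library's composition in the result was not tested.

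Cytosolic sensors and their regulators made up much of this set. Ifih1 encodes MDA5, a sensor of long double-stranded RNA, and was at 0.73, 1.51 and 0.89 FPKM in WT_LPS, against 2.05 and 1.71 FPKM in WT_PBS. Ddx58 encodes RIG-I, the sensor of RNA with a triphosphate end, and was at 2.85, 4.61 and 3.67 FPKM in WT_LPS, against 5.69 and 5.56 FPKM in WT_PBS. Both differences were -0.51. Usp18, which removes the ubiquitin-like ISG15 and damps the interferon receptor, was at 0.40, 1.54 and 0.98 FPKM in WT_LPS, against 1.73 and 1.59 FPKM in WT_PBS. All of these sat lower in each WT_LPS library, and 5 of 10 sensors and regulators did so (50%, against 10.4% of all genes). The exception in sign was Irf1, an interferon regulatory factor, at 33.3, 31.9 and 25.6 FPKM in WT_LPS, against 25.6 and 25.8 FPKM in WT_PBS.

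Antiviral effectors had the widest differences. Ifit3, which binds partner proteins that recognise foreign RNA caps, was at 0.24, 0.80 and 0.75 FPKM in WT_LPS, against 2.01 and 1.69 FPKM in WT_PBS. Its difference was -0.85 ± 0.35 (SE; limma, unadjusted p = 0.038, adjusted p = 0.9998). Rsad2, which encodes viperin and makes a chain-terminating nucleotide, was at 0.29, 0.65 and 0.25 FPKM in WT_LPS, against 1.21 and 1.38 FPKM in WT_PBS. Cmpk2, its genomic neighbour and a mitochondrial kinase, was at 1.73, 3.66 and 3.33 FPKM in WT_LPS, against 4.13 and 6.04 FPKM in WT_PBS. Of 15 effectors tested, 6 were apart with WT_LPS lower (40%, against 10.4% of all genes). The levels of most were a few FPKM, and Ifit3 belongs to a family of close copies whose reads the counting could split.

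Interferon-inducible GTPases were mixed. Gbp7, a guanylate-binding protein gene on chromosome 3, was at 62.5, 86.7 and 72.7 FPKM in WT_LPS, against 125 and 88.5 FPKM in WT_PBS. It was at 97.4, 92.9 and 105 FPKM in KO_LPS. The difference of WT_LPS from WT_PBS was -0.52 ± 0.18 (SE; limma, unadjusted p = 0.022, adjusted p = 0.9998). WT_LPS replicate 2 and WT_PBS replicate 2 lay close together, so the separation was narrow. Gbp7 was the only one of 12 GTPases with WT_LPS below (8.33%, against 10.4% of all genes). Gbp4 was the only one with WT_LPS above (8.33%, against 5.32%). Iigp1, Igtp and Gbp2 overlapped between the groups, with differences of -0.10, -0.08 and 0.19.

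The promoter windows of Ifit3 (chr19:34583279-34583578, plus strand) and Gbp7 (chr3:142530086-142530385, plus strand) are shown because they carry the interferon element, in capitals, 2 times in Ifit3 and 1 time in Gbp7. Of the 37 tested list members, 28 had a RefSeq window and 20 of them held TTTCNNTTTC (71.4%), where 3.95% of 9295 tested genes with a window did.
Ifit3: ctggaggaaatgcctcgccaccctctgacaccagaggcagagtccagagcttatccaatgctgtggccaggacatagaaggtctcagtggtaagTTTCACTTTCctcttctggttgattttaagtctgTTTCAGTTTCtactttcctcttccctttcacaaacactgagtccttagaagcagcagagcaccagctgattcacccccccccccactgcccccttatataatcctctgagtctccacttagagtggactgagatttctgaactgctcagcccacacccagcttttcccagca
Gbp7: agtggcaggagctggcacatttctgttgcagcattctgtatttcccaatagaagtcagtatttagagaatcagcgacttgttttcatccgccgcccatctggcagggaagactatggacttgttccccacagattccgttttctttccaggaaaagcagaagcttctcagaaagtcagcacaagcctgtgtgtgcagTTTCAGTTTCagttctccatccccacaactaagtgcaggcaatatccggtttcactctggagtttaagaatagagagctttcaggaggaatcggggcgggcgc

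Antigen presentation genes, which interferon also induces, did not follow. Of 16 tested, 14 differences lay above 0 with a median of 0.18, and 3 were apart with WT_LPS higher (18.8%, against 5.32% of all genes). The median was 0.09 without WT_LPS replicate 1, and 0.02 with 10 of 16 above 0 when libraries were weighted by their fit. H2-K1, a class I heavy chain gene, was at 438, 468 and 395 FPKM in WT_LPS, against 388 and 393 FPKM in WT_PBS. Psmb9, an immunoproteasome subunit gene, was at 88.0, 84.5 and 95.4 FPKM in WT_LPS, against 76.9 and 80.3 FPKM in WT_PBS. Cd74, the class II invariant chain gene, was at 52.9, 43.8 and 30.1 FPKM in WT_LPS, against 33.2 and 28.5 FPKM in WT_PBS, and overlapped.

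**Figure D3:**
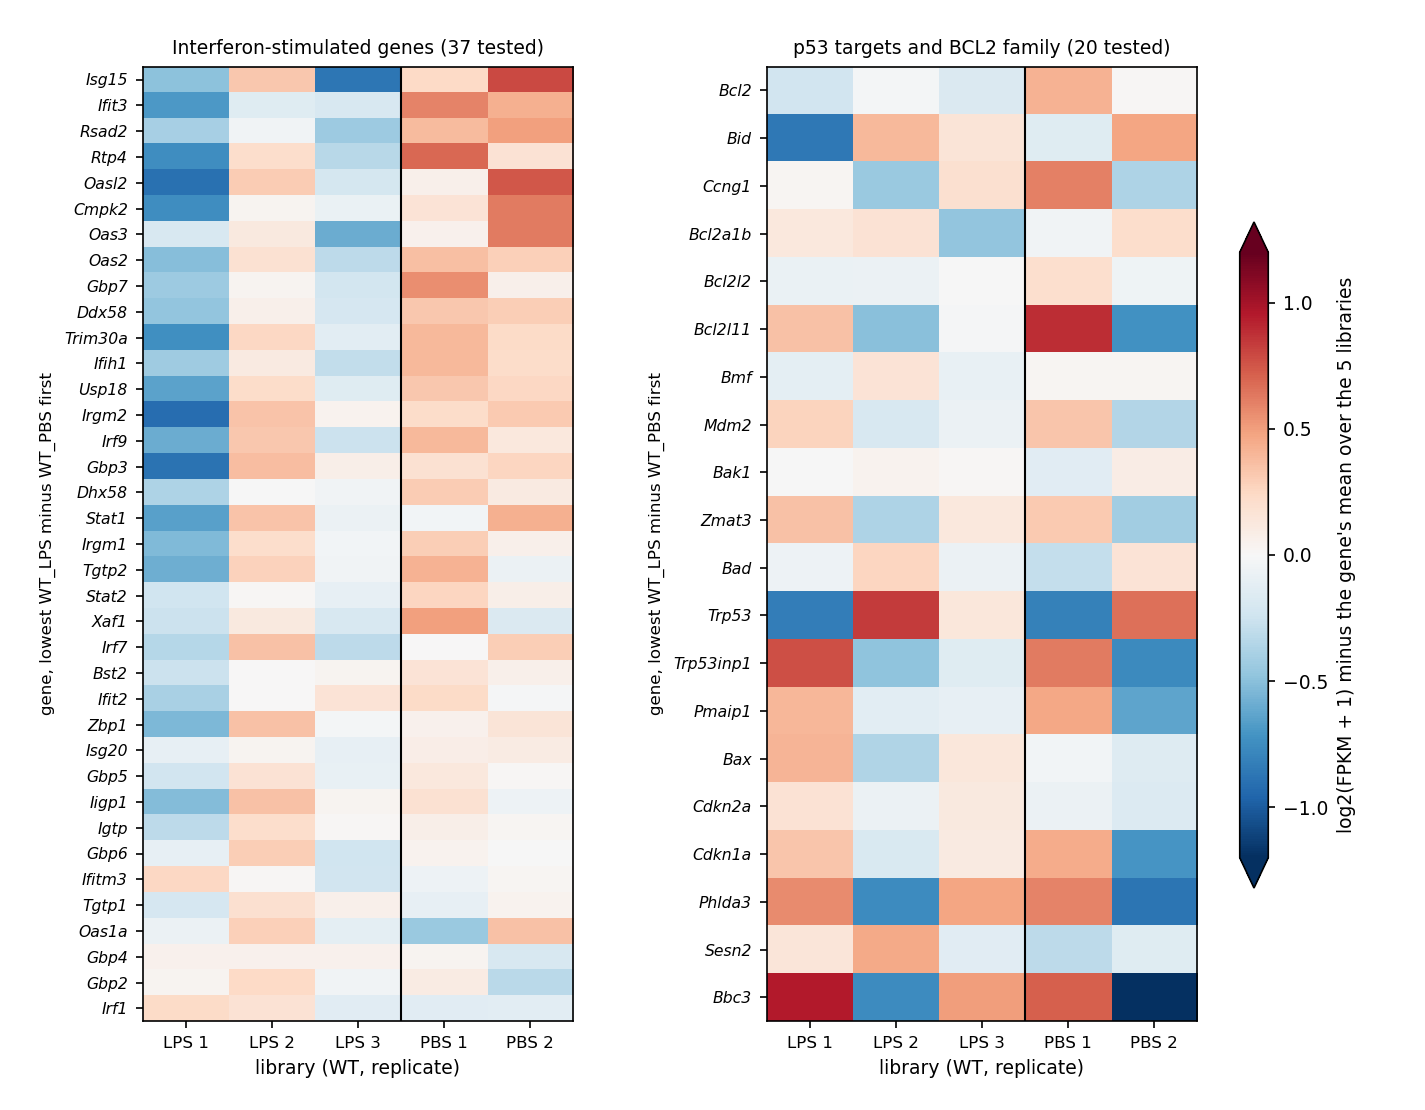
Each row is a tested gene and each column a library (WT_LPS 1 to 3, then WT_PBS 1 and 2), coloured by log2(FPKM + 1) minus the gene's mean over the 5 libraries. In the left panel most of 37 interferon-stimulated genes are lower in WT_LPS 1 than in both WT_PBS libraries, and in the right panel many p53 targets pair WT_LPS 1 with WT_PBS 1 rather than with their own group.

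Transcripts of vessels and supporting stroma were lower in WT_LPS. Marker lists of endothelium, pericytes with smooth muscle, and reticular stroma held 30 genes together, of which 20 were tested. Of these, 18 differences lay below 0 and 12 were apart with WT_LPS lower (60.0%, against 10.4% of all genes), with a median of -0.32 (all genes -0.06). None was apart in the other direction, and 0 passed adjustment (limma). At an unadjusted p under 0.05 limma gave 3 of 20, where 1.21% of all genes were. With only genes averaging at least 5 FPKM, 7 were left, 6 lay below 0 and 2 were apart with WT_LPS lower (28.6%, against 9.1% of all genes). With no filter, 15 of 30 were apart with WT_LPS lower (50%), as were 1759 of 17535 genes. The osteoblast and cartilage list was not joined, and 1 of its 6 tested members was apart with WT_LPS lower (16.7%). Members and lists were chosen with earlier results of these data known. Leaving out a library cannot lower the count of 12, which was 16 without WT_LPS replicate 1 (80.0%, against 14.7% of all genes). The median was then -0.38, with 19 differences below 0. After quantile normalization the count was 8 (40%, against 7.5%).

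Madcam1 had the second smallest p of all genes. It encodes the addressin of sinusoidal and venous endothelium that binds the integrin of homing lymphocytes, on chromosome 10 (79664559 to 79668542). Its level was 0.56, 1.49 and 1.68 FPKM in WT_LPS, 0.79, 1.31 and 0.78 FPKM in KO_LPS, and 4.72 and 4.28 FPKM in WT_PBS. All LPS-treated libraries stood below both PBS libraries by a wide gap. The difference of WT_LPS from WT_PBS was -1.33 ± 0.27 (SE), with an interval of -1.94 to -0.72 (limma, unadjusted p = 0.000874, adjusted p = 0.9998). Other markers of marrow sinusoids were lower too. Stab2, a scavenger receptor gene, was at 0.60, 0.66 and 0.58 FPKM in WT_LPS, against 1.25 and 1.12 FPKM in WT_PBS. Flt4, the receptor for lymphangiogenic growth factors, was at 1.10, 1.08 and 1.85 FPKM in WT_LPS, against 2.36 and 2.06 FPKM in WT_PBS. Plvap, which forms the diaphragms of endothelial pores, was at 5.28, 5.15 and 5.69 FPKM in WT_LPS, against 8.01 and 8.28 FPKM in WT_PBS. Of 11 endothelial markers tested, 6 were apart with WT_LPS lower (54.5%, against 10.4% of all genes). The exception in sign was Pecam1, an adhesion gene that leukocytes also express. It was at 19.7, 27.7 and 26.7 FPKM in WT_LPS, against 18.8 and 24.0 FPKM in WT_PBS.

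Ccl19, a chemokine that guides T cells and dendritic cells through lymphoid stroma, had the most negative difference of the named genes. It was listed at 0.00, 0.05 and 0.57 FPKM in WT_LPS, 1.97, 4.31 and 0.19 FPKM in KO_LPS, and 4.43 and 2.59 FPKM in WT_PBS. The WT_LPS libraries were all below both WT_PBS libraries, with a difference of -1.90 ± 0.54 (SE; limma, unadjusted p = 0.00728, adjusted p = 0.9998), while KO_LPS libraries ranged from 0.19 to 4.31 FPKM. The gene has near-identical copies on chromosome 4 in the mouse, so its value is uncertain.

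Pericyte and reticular genes were of the same kind. Kcnj8, a potassium channel gene of pericytes, was at 1.10, 1.82 and 1.67 FPKM in WT_LPS, 1.33, 1.55 and 2.46 FPKM in KO_LPS, and 3.91 and 3.43 FPKM in WT_PBS. Abcc9, which encodes the regulatory subunit of that channel, was at 0.76, 0.85 and 1.02 FPKM in WT_LPS, against 1.76 and 1.44 FPKM in WT_PBS. The channel and its subunit were thus both lower in each WT_LPS library. Cxcl12, the chemokine by which reticular cells retain haematopoietic and leukaemic cells in the niche, was at 10.8, 7.79 and 12.2 FPKM in WT_LPS, against 16.6 and 17.6 FPKM in WT_PBS. Its difference was -0.71 (limma, unadjusted p = 0.061, adjusted p = 0.9998). Lepr, the leptin receptor that marks those cells, was at 0.51, 0.47 and 0.37 FPKM in WT_LPS, against 1.08 and 0.62 FPKM in WT_PBS. The receptor of CXCL12 was level, with Cxcr4 at 126, 145 and 143 FPKM in WT_LPS, against 130 and 120 FPKM in WT_PBS.

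Other genes with low values in WT_LPS include Fabp4 and Lpl, named for the size of their difference and belonging to no list. Fabp4, a fatty acid carrier of adipocytes and endothelium, was at 15.8, 16.6 and 19.6 FPKM in WT_LPS, against 30.3 and 30.5 FPKM in WT_PBS. Lpl, lipoprotein lipase, was at 0.95, 2.04 and 1.55 FPKM in WT_LPS, against 3.28 and 3.23 FPKM in WT_PBS. Both had a difference of -0.78. Adipoq, adiponectin, which defines fat cells and marrow fat precursors, was at or below 0.15 FPKM in all 5 libraries. The guidance ligand gene Sema3a was at 0.83, 0.95 and 0.85 FPKM in WT_LPS, against 3.24 and 1.84 FPKM in WT_PBS, and its receptor gene Nrp1 at 1.01, 1.05 and 0.76 FPKM in WT_LPS, against 1.56 and 1.90 FPKM in WT_PBS. The bone matrix gene Ibsp was at 0.49, 0.42 and 0.25 FPKM in WT_LPS, against 0.90 and 1.62 FPKM in WT_PBS, whereas Col1a1 overlapped.

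Stromal transcripts were scarce in all libraries. Summed over 9 reticular markers they came to 23.0, 22.6 and 25.7 FPKM in WT_LPS, against 31.3 and 36.8 FPKM in WT_PBS. Summed over 9 pericyte and smooth muscle markers they came to 9.37, 14 and 12.2 FPKM in WT_LPS, against 17 and 18.5 FPKM in WT_PBS. WT_LPS and WT_PBS did not overlap in either sum. In KO_LPS the reticular sums were 17.6, 32.3 and 23.1 FPKM and overlapped WT_PBS. The pericyte sums in KO_LPS were 10.2, 8.96 and 13.6 FPKM, below both WT_PBS libraries. Summed over 12 endothelial markers, levels were 61.1, 59.4 and 59.6 FPKM in WT_LPS, against 65.3 and 74.0 FPKM in WT_PBS. The endothelial sums in KO_LPS were 50.5, 54.8 and 70.6 FPKM and overlapped WT_PBS. How much stroma each marrow sample carried was not measured otherwise, and its part in these differences was not tested.

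The Madcam1 window (chr10:79664309-79664608, plus strand) holds 1 match of GGGANNTTCC on either strand, in capitals, and none of TTTCNNTTTC. It is shown because NF-kB is known to act on this promoter.
Madcam1: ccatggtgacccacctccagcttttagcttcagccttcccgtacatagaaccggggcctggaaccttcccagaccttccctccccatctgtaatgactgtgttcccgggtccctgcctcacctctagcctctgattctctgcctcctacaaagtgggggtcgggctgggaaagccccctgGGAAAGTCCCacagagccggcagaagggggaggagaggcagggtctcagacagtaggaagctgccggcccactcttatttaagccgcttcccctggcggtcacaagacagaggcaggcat

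**Figure D4:**
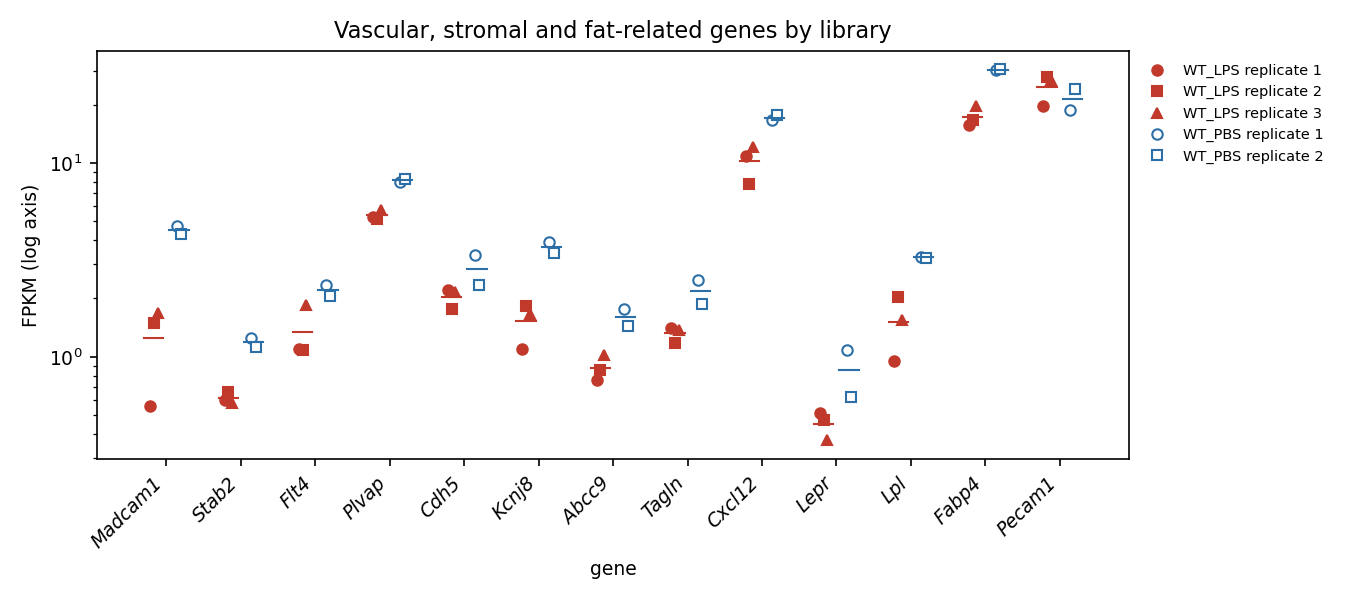
FPKM of 11 vascular, pericyte and reticular genes and of Lpl and Fabp4 in each library, on a log axis, with WT_LPS in filled red symbols (n = 3), WT_PBS in open blue symbols (n = 2), and the group mean as a line. Every gene shown except Pecam1 has its 3 WT_LPS libraries below both WT_PBS libraries. The 11 markers were picked from 20 tested, of which 12 were apart with WT_LPS lower.

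In the leukaemic compartment, B-lineage genes had no stable direction. Of 30 tested, 7 were apart with WT_LPS higher (23.3%, against 5.32% of all genes) and 1 with WT_LPS lower (3.33%, against 10.4%), and the median was 0.06. The pre-B receptor genes Cd79a, Vpreb3 and Blnk and the factors Tcf3, Pou2af1 and Ikzf1 were among the 7 that were higher. After quantile normalization 3 were apart with WT_LPS higher (10%, against 7.36% of all genes). The median was -0.03 without WT_PBS replicate 1, with 14 differences above and 16 below 0. Without WT_LPS replicate 3 it was 0.00, with 15 on each side, and without WT_LPS replicate 1 it was 0.16. Blnk, the adaptor that couples the pre-B receptor to its kinases, was at 86.2, 56.6 and 59.8 FPKM in WT_LPS, against 45 and 51.1 FPKM in WT_PBS. Pax5, the factor that commits cells to the B lineage, was the 1 that was lower, at 77.2, 126 and 111 FPKM in WT_LPS, against 137 and 137 FPKM in WT_PBS. None passed adjustment (limma), and 0 of 30 had an unadjusted p under 0.05, where 1.21% of all genes did.

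Targets of STAT5, the transcription factor downstream of BCR-ABL1, were split. Socs2, a feedback inhibitor of cytokine signalling, was at 91.6, 102 and 101 FPKM in WT_LPS, against 138 and 114 FPKM in WT_PBS. Ccnd2, cyclin D2, was at 48.5, 78.5 and 69.2 FPKM in WT_LPS, against 94.9 and 83.3 FPKM in WT_PBS. Bcl6, a repressor that STAT5 is known to hold down in these leukaemias, was at 3.06, 3.39 and 2.07 FPKM in WT_LPS, against 4.16 and 4.93 FPKM in WT_PBS. These 3 of 9 targets were apart with WT_LPS lower (33.3%, against 10.4%), while Pim1 and Cish overlapped. The kinase genes Abl1 and Jak2 differed by 0.12 and -0.20.

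Several genes of the p53 response, and Myc, varied more between libraries of 1 group than between the groups. Trp53, which encodes p53, was at 35.7, 116 and 70.9 FPKM in WT_LPS, against 36.4 and 102 FPKM in WT_PBS. Bbc3, the pro-apoptotic p53 target PUMA, was at 24.2, 6.72 and 17.6 FPKM in WT_LPS, against 20.5 and 3.89 FPKM in WT_PBS. WT_LPS replicate 1 thus resembled WT_PBS replicate 1, and WT_LPS replicate 2 resembled WT_PBS replicate 2, for both genes. Myc was at 34.4, 164 and 102 FPKM in WT_LPS, against 104 and 217 FPKM in WT_PBS. Cdkn1a, the cell cycle inhibitor p21, was at 67.0, 46.8 and 57.5 FPKM in WT_LPS, against 72.9 and 32.1 FPKM in WT_PBS. Cdkn2a, which encodes the tumour suppressors p16 and Arf, was at 228, 193 and 219 FPKM in WT_LPS, against 192 and 180.4 FPKM in WT_PBS. It stood marginally higher in each WT_LPS library, with a difference of 0.19. Of 12 p53 response genes tested, 11 differences lay above 0. The groups were apart for 2, Cdkn2a among them, both with WT_LPS higher (16.7%, against 5.32% of all genes). With the BCL2 family, 20 genes, the median was 0.10. That median was 0.26 without WT_PBS replicate 1 and -0.27 without WT_PBS replicate 2.

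Proliferation genes showed no common direction. Of 34 replication and G1/S genes, 26 differences lay above 0 with a median of 0.12, and 5 were apart with WT_LPS higher (14.7%, against 5.32%). That count was 7 after median-ratio scaling (20.6%, against 8.24% of all genes). After quantile normalization it was 3 (8.82%, against 7.36%), near the share of all genes. Mcm7, a subunit of the replicative helicase, was at 299, 230 and 282 FPKM in WT_LPS, against 229 and 213 FPKM in WT_PBS. Of 20 mitotic genes, 5 were apart with WT_LPS lower (25.0%, against 10.4%), a count that was 2 after median-ratio scaling (10%, against 7.11% of all genes) and 3 after quantile normalization (15%, against 7.5%). As deposited these were Mki67, Cenpe, Cenpf, Kif11 and Nusap1. Mki67, the nuclear antigen Ki-67, was at 54.8, 51.7 and 52.4 FPKM in WT_LPS, against 76.3 and 61.2 FPKM in WT_PBS. Aurkb, a mitotic kinase, was higher in each WT_LPS library, and Ccnb1 and Cdk1 overlapped.

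Mitochondrial and ribosomal genes sat slightly higher. All 20 genes of oxidative phosphorylation had differences above 0, between 0.03 and 0.24, and 2 were apart (10%, against 5.32%). WT_LPS replicate 1 carried most of this lean: without it 14 of 20 lay above 0, with a median of 0.02. Uqcrc1, a complex III core gene, was at 165, 132 and 143 FPKM in WT_LPS, against 123 and 127 FPKM in WT_PBS. Of 22 ribosomal protein genes, 19 lay above 0 with a median of 0.11, and 0 were apart in that direction. The groups were apart for 1 with WT_LPS lower (4.55%, against 10.4% of all genes). After quantile normalization 14 of 22 lay above 0, with a median of 0.02. The median was 0.05 without WT_LPS replicate 1 and 0.02 without WT_PBS replicate 2.

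Outside these lists' themes, a few genes carried the most separated values. Tubb2b, a beta tubulin gene on chromosome 13, had the smallest p of all genes. It was at 18.5, 13.8 and 15.4 FPKM in WT_LPS, 14.6, 18.3 and 15.3 FPKM in KO_LPS, and 7.11 and 7.73 FPKM in WT_PBS. All LPS-treated libraries were above both PBS libraries. The difference of WT_LPS from WT_PBS was 1.0 ± 0.19 (SE; limma, unadjusted p = 0.000618, adjusted p = 0.9998). Its close copy Tubb2a, with which reads may be shared, was at 21.1, 12.1 and 16.7 FPKM in WT_LPS, against 13.6 and 10.6 FPKM in WT_PBS.

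St3gal6 encodes a sialyltransferase that adds alpha-2,3-linked sialic acid and helps build selectin ligands. It was at 32.0, 33.8 and 34.9 FPKM in WT_LPS, 64.1, 58.9 and 51.1 FPKM in KO_LPS, and 20.8 and 24.2 FPKM in WT_PBS. The spread within each group was small, and the difference of WT_LPS from WT_PBS was 0.56 ± 0.14 (SE; limma, unadjusted p = 0.00425, adjusted p = 0.9998). Among the other 5 alpha-2,3 enzymes only St3gal3 was apart, with WT_LPS higher by 0.25. St6gal1, the alpha-2,6 enzyme of B cells, was at 13.1, 14.6 and 16.6 FPKM in WT_LPS, against 17.2 and 17.2 FPKM in WT_PBS.

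Atp6v1e1, a subunit of the proton pump that acidifies lysosomes, had the highest named difference, 2.54. It was at 16.8, 17 and 8.67 FPKM in WT_LPS, 6.74, 6.82 and 11.0 FPKM in KO_LPS, and listed at 0 in WT_PBS replicate 1 and at 5.28 FPKM in WT_PBS replicate 2. When 1 library was left out, the difference ranged from 1.22 to 3.87. Every cell uses this pump, and its other 15 subunits differed by -0.18 to 0.22. Whether the 0 is a failed estimate was not tested, and no fold is given. Mpv17l2, a mitochondrial ribosome assembly gene, was at 10.2, 5.39 and 6.94 FPKM in WT_LPS, against 1.82 and 4.0 FPKM in WT_PBS. Mt2, a metallothionein gene, was at 148, 83.4 and 116 FPKM in WT_LPS, against 75.1 and 70.7 FPKM in WT_PBS, a difference of 0.62. Ctla4, an inhibitory receptor of T cells, was at 1.65, 1.44 and 1.14 FPKM in WT_LPS, against 0.46 and 0.40 FPKM in WT_PBS. The T-cell marker genes Cd3d, Cd3g and Cd4 were below 2 FPKM in these libraries and overlapped.

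On the lower side, Lta, which encodes lymphotoxin alpha, was the most abundant of the 14 named genes chosen as lowest among those with an unadjusted p under 0.05 in limma and no overlap. It was at 98.3, 120.5 and 126 FPKM in WT_LPS, 163, 127 and 94.4 FPKM in KO_LPS, and 258 and 166 FPKM in WT_PBS. Its difference was -0.85 ± 0.26 (SE; limma, unadjusted p = 0.00973, adjusted p = 0.9998). Tnf, the next gene on chromosome 17, differed by -0.16, and Ltb, the third of that cluster, was listed at 0 in 4 of the 5 libraries. Gldc, the decarboxylase of the glycine cleavage system, was at 2.96, 3.49 and 1.52 FPKM in WT_LPS, 0.10, 0.13 and 0.07 FPKM in KO_LPS, and 4.22 and 8.88 FPKM in WT_PBS. Sirpb1c, a signal-regulatory receptor gene of myeloid cells with close copies, was at 0.57, 0.00 and 0.24 FPKM in WT_LPS, against 3.75 and 2.45 FPKM in WT_PBS. Serpinb9c, Rasl11b, Cpq and Samd9l had differences of -0.77 to -0.78.

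**Figure D5:**
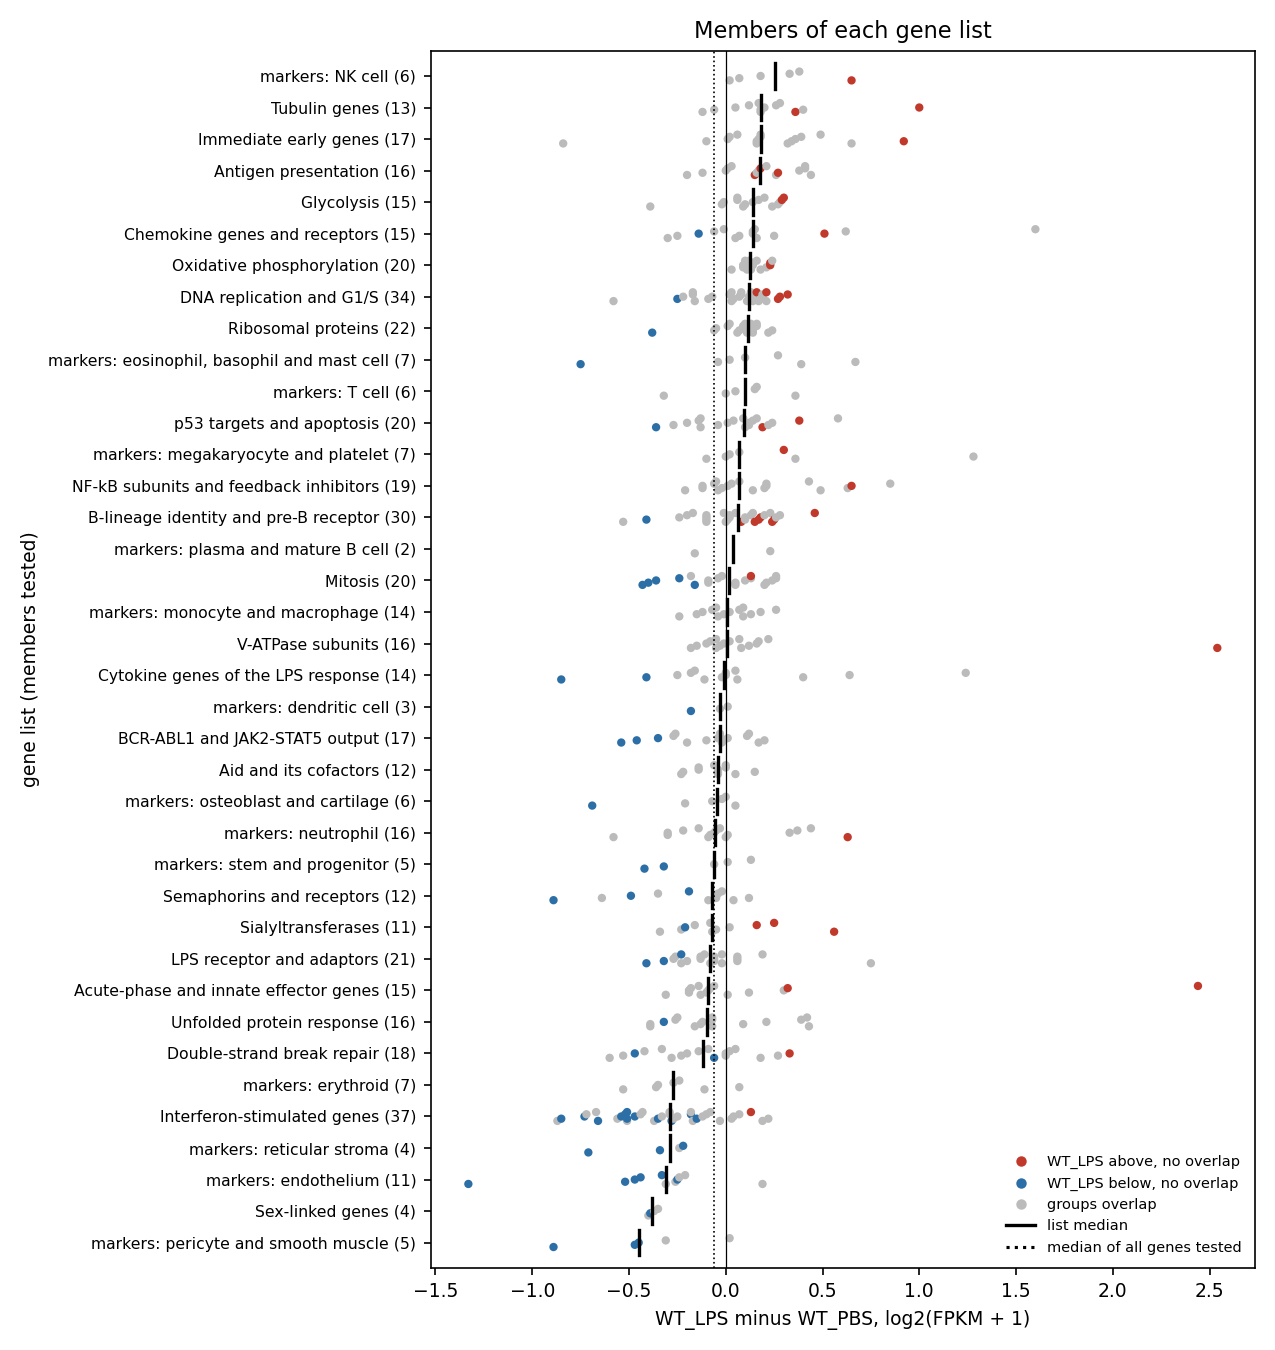
Each row is a gene list with its number of tested members, each point a member at its difference WT_LPS minus WT_PBS (log2 of FPKM + 1), coloured where the groups do not overlap, and the bar is the list's median. Medians run from -0.45 for pericytes and smooth muscle to 0.25 for NK cells, and the dotted line is the median of all genes tested, -0.06.

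Markers of other blood cells mostly overlapped. Monocyte and macrophage genes had 7 differences above and 7 below 0, with 0 apart in either direction. NK cell genes had 6 of 6 above 0 with a median of 0.25, and 4 of 6 when WT_LPS replicate 2 (median 0.18) or WT_PBS replicate 1 (median 0.09) was left out. The groups were apart for 1 (16.7%, against 5.32% of all genes), the granzyme gene Gzmb, at 2.41, 3.98 and 3.80 FPKM in WT_LPS, against 1.57 and 1.99 FPKM in WT_PBS. Erythroid genes overlapped throughout, with a summed level of 473, 365 and 295 FPKM in WT_LPS, against 481 and 357 FPKM in WT_PBS.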

How the data were processed

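Bone marrow RNA of leukaemic mice was sequenced in 8 libraries, and the 5 libraries of Aid-intact cells were compared. Total RNA was turned into libraries by a SMARTer kit for mRNA, as the labels' protocols state. The authors deposited FPKM values per gene, per the file headers, rounded to 2 decimals, and the builds GRCm38 and mm10 come from the submitters' processing notes. Which aligner and quantifier were used is not given in the sources used here. FPKM does not correct for composition, the sums were 606576 to 689299 FPKM over the 5 libraries, and depth in reads is unknown, so no counting interval is given. Of 18020 rows, 16798 matched a RefSeq symbol of assembly GRCm38.p6 and 1119 were unnamed loci. No libraries were identical.

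Testing used log2(FPKM + 1) for genes averaging 0.5 FPKM or more over the 5 libraries, so differences of low genes are understated. Means of WT_LPS, KO_LPS and WT_PBS were fitted to 8 libraries with limma (3.58.1, R 4.3.3) with a trended prior, and p-values were two-sided and adjusted by Benjamini-Hochberg. Groups are called apart when their FPKM values do not overlap. Lists are described by counts and medians beside all genes, with no list test. Members and the 38 lists were chosen with earlier results of these data known. Named genes were the 14 largest rises and 14 largest falls with an unadjusted p under 0.05 and no overlap, the 10 smallest p, up to 4 members of each list with the smallest p, and anchor genes of the lists. Immunoglobulin segments, predicted genes and unnamed loci were left out. Other members are named beside a count and were chosen after their values were seen. On data simulated with independent noise for WT_LPS against WT_PBS (12105 genes, 200 changed, mean log2 of at least 2, 20 runs), limma found 40.3% of the 2-fold changes and 84.3% of those of 4-fold, with 6.80 false calls on average. Alternatives (15) varied the pseudocount, filter, scaling, moderation, weights and libraries. Some genes of the lists are not reported here.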

Additional observations from a re-analysis of the deposited data

How the results depend on the processing

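No paired analysis was possible because the replicate numbers were given in accession order and mark no shared animal, culture or day. No gene passed adjustment under any alternative except without WT_PBS replicate 2, when 2 unnamed loci did. Leaving out 1 library gave 0 to 2 genes past the threshold, 86 to 362 at an unadjusted p under 0.05, 969 to 2204 with WT_LPS above and 1732 to 4179 with WT_LPS below. The lone library of an arm was then assumed to vary like the other groups. List medians ranged from -0.05 to 0.18 for NF-kB genes, -0.26 to 0.11 for acute-phase genes, -0.48 to -0.12 for interferon-stimulated genes, -0.41 to -0.28 for reticular stroma, -0.56 to -0.38 for pericytes and -0.40 to -0.25 for endothelium. Genes at an unadjusted p under 0.05 numbered 489 with no filter, 66 with a filter at 5 FPKM and 1272 with array weights. Array weights gave medians of -0.15 for NF-kB genes and -0.46 for acute-phase genes, and the cause was not tested. With only the WT_LPS library whose title number is below 10, they numbered 630, with 3125 genes above and 6171 below, and medians were -0.64 for interferon-stimulated genes, -0.56 for pericytes and -0.39 for endothelium. Median-ratio scaling gave 998 genes above, and the 5 FPKM filter 772 below. The stromal medians shrank or grew with the settings but kept their sign. For reticular stroma, pericytes and endothelium they were -0.56, -0.67 and -0.49 with a pseudocount of 0.1, and -0.14, -0.18 and -0.15 with 5. They were -0.47, -0.31 and -0.23 with the 5 FPKM filter, and -0.21, -0.33 and -0.22 after quantile normalization. With no filter, reticular stroma and pericytes had -0.18 and -0.27. FPKM gives no read depth, so the precision of genes near 1 FPKM, many of the stromal and interferon genes among them, is unknown.

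Of 113 genes named and tested, 32 changed the sign of their difference somewhere, and the groups overlapped for all 32. When 1 library was left out, their differences ranged from -0.49 to 1.65 for Bbc3, -0.85 to 0.11 for Camp, -0.00 to 0.11 for Ccnb1, -0.04 to 0.14 for Cd3g, -0.08 to 0.04 for Cdk1, -0.36 to 0.80 for Cdkn1a, -0.91 to 0.39 for Cish and -0.24 to 0.20 for Col1a1. The ranges were -0.02 to 0.40 for Gbp2, -0.88 to 0.10 for Hspa5, -0.20 to 0.06 for Igtp, -0.30 to 0.13 for Iigp1, -0.67 to 0.16 for Lcn2, -0.18 to 0.32 for Marco, -0.18 to 0.04 for Myd88 and -0.22 to 0.02 for Nfkb1. They were -0.27 to 0.49 for Nfkbia, -0.35 to 0.86 for Nfkbiz, -0.10 to 0.06 for Pim1, -0.02 to 0.17 for Rela, -0.64 to 0.21 for S100a8, -0.24 to 0.20 for Ticam1, -0.20 to 1.06 for Tnfaip3, -0.62 to 0.85 for Trp53 and -0.05 to 0.09 for Vpreb1. Array weights turned the difference to -0.64 for Cd14, -0.03 for Cd3g, -0.02 for Cd74, 0.05 for Cdk1, 0.01 for Col1a1, -0.56 for Cxcl2, -0.00 for Irf1, -0.06 for Junb, -0.02 for Mpo, -0.35 for Nfkbia, -0.42 for Nfkbiz, -0.06 for Rela and -0.20 for Tnfaip3. With only the WT_LPS library whose title number is below 10, it was 1.05 for Camp, -0.06 for Cd3g, 0.03 for Cdk1, 0.28 for Cish, 0.10 for Col1a1, 0.77 for Lcn2, -0.61 for Marco, 0.20 for Myd88, -0.10 for Pecam1, 0.01 for Pim1, 1.03 for S100a8 and -0.76 for Trp53. Median-ratio scaling gave 0.04 for Cdk1, 0.02 for Col1a1, 0.01 for Myd88, 0.04 for Pim1 and 0.04 for Ticam1, and quantile normalization gave 0.06 for Col1a1, 0.03 for Igtp, 0.09 for Ticam1 and -0.08 for Vpreb1.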

Other observations

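Immediate early genes, which cells switch on within minutes of a stimulus, were above 0 for 15 of 17 tested, with a median of 0.18 (all genes -0.06) and 1 gene apart with WT_LPS higher (5.88%, against 5.32% of all genes). With array weights 5 of 17 lay above 0 and the median was -0.06, and without WT_LPS replicate 2 the values were 10 of 17 and 0.04. That gene was Fos, a subunit of the AP-1 factor, at 5.70, 13.98 and 5.48 FPKM in WT_LPS, against 4.42 and 2.88 FPKM in WT_PBS. Junb, its partner, was at 98.8, 65.4 and 37.4 FPKM in WT_LPS, against 38.1 and 41.0 FPKM in WT_PBS, and overlapped. Glycolytic genes were above 0 for 12 of 15, with a median of 0.14, and 2 were apart with WT_LPS higher (13.3%, against 5.32% of all genes). The median was 0.07 after quantile normalization. It was 0.02 without WT_PBS replicate 1 and 0.29 without WT_PBS replicate 2. Gapdh, which oxidises the triose phosphate, was at 2290, 1522 and 1699 FPKM in WT_LPS, against 1471 and 1489 FPKM in WT_PBS, and the highest value was again that of WT_LPS replicate 1.

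Genes of the unfolded protein response varied within groups. Hspa5, the main chaperone of the endoplasmic reticulum, was at 102, 277 and 156 FPKM in WT_LPS, against 153 and 302 FPKM in WT_PBS. Eif2s3y, a Y-linked translation factor gene of mice, was at 31.0, 33.4 and 34.8 FPKM in WT_LPS, against 50.6 and 37.7 FPKM in WT_PBS. Ppbp, a platelet chemokine gene, was listed at 0 in WT_LPS replicate 3 and in both WT_PBS libraries, and at 3.79 and 1.99 FPKM in WT_LPS replicates 1 and 2.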
